A study of Mus musculus with 16 samples.

Results

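Muscle loses mass when protein breakdown outpaces protein synthesis, and fasting is a classic trigger. The 9 genes described here, out of 21938 protein-coding genes, have established roles in that process and were chosen by name for those roles. This choice, and that of the pathway lists below, was made with earlier results of these data known. Counts of these genes against all genes are therefore no blind test. The set holds Fbxo32 (atrogin-1) and Trim63 (MuRF1), the muscle ubiquitin ligases that serve as standard markers of atrophy. Fbxo30 (MUSA1) and Fbxo21 encode further F-box subunits of ubiquitin ligases. Mstn encodes myostatin, a secreted inhibitor of muscle growth. Klf15 encodes a transcription factor induced by glucocorticoids, and Bcat2 encodes the mitochondrial enzyme that starts the breakdown of branched-chain amino acids. Eif4ebp1 encodes a repressor of cap-dependent translation that acts when mTORC1 is inactive, and Gadd45a encodes a stress protein that takes part in denervation atrophy.

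As background, insulin and IGF-1 signalling keeps the FOXO transcription factors out of the nucleus in fed muscle. When insulin falls and glucocorticoids rise, FOXO factors and the glucocorticoid receptor activate Fbxo32, Trim63 and Klf15, whose products mark myofibre proteins for the proteasome or switch the fibre to amino acid breakdown. Myostatin signals through activin receptors and SMAD proteins to restrain growth.

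Open chromatin was profiled by ATAC-seq, which uses a transposase to cut and tag accessible DNA. The 16 libraries came from muscle, heart, kidney, liver, lung, spleen and the white and brown fat of male C57BL/6 mice that were either fed chow freely or fasted for a day, with no genetic change in either group. Tissue of the mice of a group was pooled, so each tissue and state has 1 library, and all tissues of a state came from the same mice. The mice were adult, and which muscle was taken is not stated in the sources used here. Each library is a list of 298996 to 299529 peak summits. A peak was assigned to a promoter when its summit lay within 3 kb of a GENCODE vM21 transcript start (GRCm38). Its strength is given as a percentile of the peak p-value among all rows of the same list, with 0 for no peak and 100 for the strongest peak. The background at a summit, a stand-in for depth, ranged from 2.80 tags in fed liver to 12.8 in fed brown adipose. The labelled tissues had the highest mean percentile for their own markers: all 7 muscle genes had a promoter peak in both muscle libraries, with a mean percentile of 93.8 fed and 92.3 fasting, and all 5 heart genes had one in both heart libraries, with a mean of 84.0 fed and 74.1 fasting. A promoter peak alone did not mark the tissue, since all 7 muscle genes also had one in fed brown adipose and fed spleen, and all 5 heart genes in both kidney libraries and fed spleen. The other means reached 74.4 at most for the muscle genes and 67.7 for the heart genes. In bulk tissue, fewer cells of a type and less accessible chromatin per cell cannot be told apart.

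Example sequences from the muscle pattern are shown first. They are the 200 bases before the starts of Trim63 and Mstn, and 200 bases at each of 7 regions. The 7 were taken from the 65 regions of the gene windows that were higher in muscle than in 6 other tissues. Each was among the 2 regions of smallest adjusted p of its gene, and its window is centred on its strongest muscle summit. All were read from GRCm38 in the direction of the gene. Capitals mark a match, on either strand, to 1 of 5 motifs: the FOXO core GTAAACA, the glucocorticoid response element core ACANNNTGT, the E-box CAGCTG bound by MyoD-type factors, the MEF2 site, and the ATF4 composite site TGATGNAAT. Matches of different motifs did not overlap in these windows. The 7 regions do not stand for the 65: most of the other windows held no match. That of chr15:58203790-58204607, the strongest Fbxo32 region outside its promoter, was among those without one.
Trim63 start: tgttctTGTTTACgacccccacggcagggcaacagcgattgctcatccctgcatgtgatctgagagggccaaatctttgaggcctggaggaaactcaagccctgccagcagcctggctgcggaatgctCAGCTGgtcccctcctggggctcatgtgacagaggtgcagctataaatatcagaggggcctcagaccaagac
Mstn start: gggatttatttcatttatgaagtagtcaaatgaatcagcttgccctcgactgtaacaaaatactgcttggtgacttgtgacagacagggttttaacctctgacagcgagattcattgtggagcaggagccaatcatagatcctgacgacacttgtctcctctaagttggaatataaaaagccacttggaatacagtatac
Trim63 upstream element: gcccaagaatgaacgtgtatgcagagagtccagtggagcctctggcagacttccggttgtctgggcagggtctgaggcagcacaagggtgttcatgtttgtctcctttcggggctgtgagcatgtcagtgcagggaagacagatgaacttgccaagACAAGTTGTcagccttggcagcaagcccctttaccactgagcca
Mstn intron element: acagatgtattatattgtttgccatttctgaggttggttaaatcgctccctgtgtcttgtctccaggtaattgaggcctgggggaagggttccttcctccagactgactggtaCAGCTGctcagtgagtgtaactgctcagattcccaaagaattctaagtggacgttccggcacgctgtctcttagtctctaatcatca
Klf15 intron element: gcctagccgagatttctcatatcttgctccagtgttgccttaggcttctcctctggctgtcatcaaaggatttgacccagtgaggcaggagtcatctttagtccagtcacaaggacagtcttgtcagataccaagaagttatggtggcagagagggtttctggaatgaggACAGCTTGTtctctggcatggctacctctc
Fbxo32 intron element: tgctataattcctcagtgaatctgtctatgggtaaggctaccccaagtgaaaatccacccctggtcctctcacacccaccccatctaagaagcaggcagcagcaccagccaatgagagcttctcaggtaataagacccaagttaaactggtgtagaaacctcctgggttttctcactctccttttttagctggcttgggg
Fbxo32 upstream element: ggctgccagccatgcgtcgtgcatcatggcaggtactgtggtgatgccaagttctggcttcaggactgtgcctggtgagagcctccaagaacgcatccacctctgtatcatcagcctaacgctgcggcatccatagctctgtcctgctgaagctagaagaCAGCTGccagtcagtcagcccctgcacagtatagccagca
Eif4ebp1 first intron element: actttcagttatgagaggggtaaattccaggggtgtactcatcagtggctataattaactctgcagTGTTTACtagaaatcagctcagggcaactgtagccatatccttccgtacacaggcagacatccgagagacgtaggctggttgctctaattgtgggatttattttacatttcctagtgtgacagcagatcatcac
Eif4ebp1 second intron element: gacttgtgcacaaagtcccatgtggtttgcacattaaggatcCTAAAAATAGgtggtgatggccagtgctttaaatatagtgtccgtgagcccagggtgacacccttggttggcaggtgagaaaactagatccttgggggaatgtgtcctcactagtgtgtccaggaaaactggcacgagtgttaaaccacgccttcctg

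The Trim63 start window (chr4:134314920-134315119, plus strand) held a FOXO core at position 7, counted from 1 at its 5′ end, and an E-box at position 129. The window before the Mstn start (chr1:53061440-53061639, plus strand) held none of the 5 motifs. The Trim63 upstream element (chr4:134314316-134314515, plus strand) lay in intergenic DNA and held a glucocorticoid core at position 157. The Mstn intron element (chr1:53063378-53063577, plus strand) held an E-box at position 114. These are matches of letters, and no factor was measured.

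The Klf15 intron element (chr6:90472086-90472285, plus strand) held a glucocorticoid core at position 171. For Fbxo32, the intron element (chr15:58204756-58204955, minus strand) held no match, and the upstream element (chr15:58219795-58219994, minus strand), in an intron of the overlapping non-coding gene Gm15943, held an E-box at position 161. The first Eif4ebp1 element (chr8:27264444-27264643, plus strand) held a FOXO core at position 67 and lay beside an internal start. The other one (chr8:27269153-27269352, plus strand) held a MEF2 site at position 43.

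Among 268297 windows of the same length at the summits of fed muscle, the FOXO core occurred in 2.51%, the glucocorticoid core in 6.60%, the E-box in 17.4%, the MEF2 site in 1.16% and the ATF4 site in 0.58%. Among the 200 bases before 32851 RefSeq starts (GRCm38.p6), the FOXO core occurred in 2.51% and the E-box in 10.9%. Of the 7 members with a RefSeq entry in that table, Trim63 had the FOXO core, and Trim63 and an entry of Bcat2 had an E-box. Another Bcat2 entry held no match. Fbxo32 and Eif4ebp1 had no entry there.

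Promoters fell into a graded order of tissue restriction. Gadd45a (99.3 to 99.9), Fbxo30 (98.3 to 99.6), Fbxo21 (92.7 to 98.9), Bcat2 (89.0 to 99.2), Eif4ebp1 (89.0 to 98.8) and Fbxo32 (85.1 to 99.3) had a strong promoter peak in all 16 libraries. Klf15 had a peak in all 16 as well, over a wider range of 40.8 to 98.0. Trim63 had one in 14 libraries and Mstn in 5. All 9 genes passed the filter of a promoter peak in at least 4 libraries, Mstn through muscle, liver and fed kidney.

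**Figure D1:**
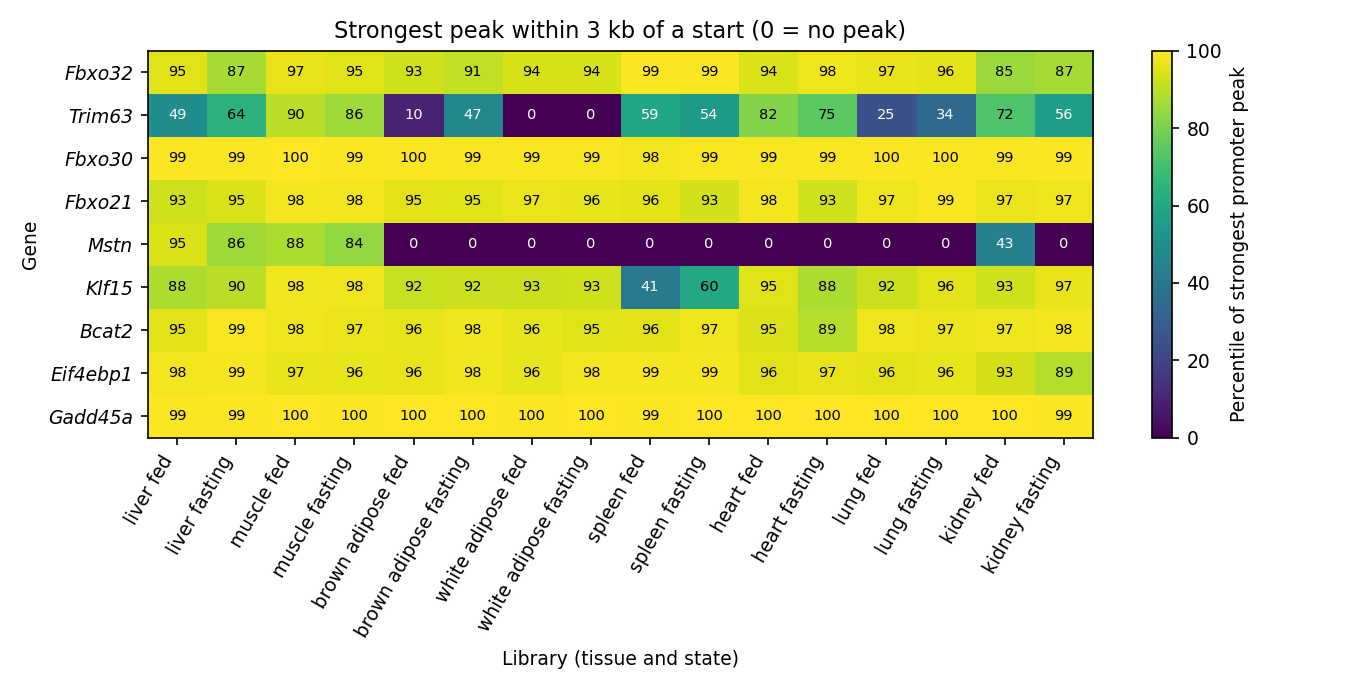
Percentile of the strongest peak within 3 kb of a start (colour and number, rounded to whole points) for each gene (rows) in each library (columns), with 0 for no peak. The rows of Gadd45a, Fbxo30, Fbxo21, Bcat2, Eif4ebp1 and Fbxo32 are bright throughout, whereas Trim63 is highest in muscle and heart, Mstn is bright only in muscle and liver, and Klf15 is dimmest in spleen.

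Trim63 was ranked highest in muscle, at 89.5 fed and 85.7 fasting, followed by heart, at 81.5 fed and 74.8 fasting. In kidney it stood at 72.3 fed and 55.6 fasting, in spleen at 58.8 and 54.4, in liver at 49.0 and 64.3, in lung at 24.9 and 34.0, and in brown adipose at 9.66 and 46.8. White adipose had no Trim63 promoter peak in either state. Both muscle libraries and both heart libraries were above all 12 libraries of the 6 tissues other than muscle and heart. The muscle and heart values lay close together.

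The strongest Trim63 summit did not lie at the same place in all libraries. In fed muscle a summit at -83 bp from a start, the minus sign meaning upstream, and one at 1371 bp both stood at 89.5, and in fasting muscle the strongest lay at -198 bp. In liver, brown adipose, lung and kidney the strongest summit lay 1337 to 1393 bp downstream of a start, as did that of fed heart, at 1368 bp, so this downstream element was also found in fed muscle. Fasting heart had its strongest summit at 400 bp. The spleen summits lay at 356 bp in fed and at -2996 bp in fasting mice.

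Mstn was ranked at 87.9 in fed and 84.0 in fasting muscle, with the summit at -19 bp and -87 bp from the start. Liver was as high, at 94.8 fed and 85.9 fasting, but at another place: both liver summits lay at -2319 bp, where no library of another tissue had a summit within 300 bp. Fed kidney had a peak at 43.4, 977 bp downstream, and fasting kidney had none. Brown adipose, white adipose, spleen, heart and lung had no Mstn promoter peak. The liver element was singled out after its values were seen.

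Klf15 stood at 98.0 fed and 97.6 fasting in muscle. Heart gave 94.9 and 87.8, and liver, both adipose depots, lung and kidney gave 87.6 to 96.6. Spleen was far lower, at 40.8 fed and 60.5 fasting. Both muscle libraries were above all 12 libraries of the 6 other tissues, the highest of which stood at 96.6. Heart overlapped them.

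Fbxo32 was not ranked highest in muscle. Spleen was highest at 99.3 fed and 98.9 fasting, muscle stood at 96.6 and 95.1, heart at 94.2 and 97.5, and kidney was lowest at 85.1 and 86.9. The start overlaps the non-coding gene Gm15943, whose nearest start lies 522 to 918 bp from these summits, so accessibility here cannot be assigned to 1 of the pair.

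Promoter ranks were compared with limma, with tissue and state as terms, over 17755 genes. The fed and the fasting library of a tissue serve as its pair of values, so the p-values measure the spread between those libraries and not between mice. Mstn was higher in muscle than in the 6 other tissues by 67.2 percentile points (SE 7.71, limma adjusted p = 0.0010) and Trim63 by 48.5 points (SE 8.54, limma adjusted p = 0.0068). Mstn had a promoter peak in only 5 libraries, both muscle libraries among them, and without those it would not meet the filter of 4. It entered the test through the group where it is high, so its p-value adds little to its values. Klf15 was 12.3 points higher (SE 3.92, limma adjusted p = 0.060), which missed the threshold of 0.05. The other 6 differed by -0.13 to 2.74 points and did not pass. So 2 of 9 genes were higher in muscle, where 9.70% of all genes tested were. In 2 of the 9, Trim63 and Klf15, both muscle libraries were above the 12 others, against 7.82% of all genes.

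In heart, Trim63 was 39.0 points above the 6 other tissues (SE 8.54, limma adjusted p = 0.022). This was the only gene of the 9 higher in heart, where 7.41% of all genes tested were, and the only 1 with both heart libraries above the 12 others, against 4.61% of all genes. Without white adipose, which has no Trim63 promoter peak, the difference was 31.2 points (limma adjusted p = 0.067). Bcat2 was 5.05 points lower in heart (SE 1.47, limma adjusted p = 0.056). Mstn, with no promoter peak in heart, was 18.7 points lower (SE 7.71, limma adjusted p = 0.14).

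Between muscle and heart, Mstn differed by 85.9 points (SE 10.1, limma adjusted p = 0.0027), the only one of the 9 to pass, where 6.03% of all genes were higher in muscle. Here too Mstn met the filter only with muscle, so the p-value adds little. For Trim63 the difference was 9.46 points with a 95% interval of -16.5 to 35.4, and for Klf15 it was 6.40 points with an interval of -5.48 to 18.3.

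The muscle calls depend on the measure of strength. Ranked among promoters alone, or on the log2 scale of summit tags over library background, Klf15 also passed, and on the tag scale so did Fbxo32. For Trim63 the call was lost under 1 measure. Ranked by fold enrichment over local background instead of p-value, its muscle difference was 4.09 points (limma adjusted p = 0.80) and its heart difference 12.7 points (limma adjusted p = 0.43). The fold at its start was 3.93 in fed and 2.64 in fasting muscle although the summit held 293 and 635 tags, or 5.52 and 5.91 on the log2 scale over library background. In fed liver 13 tags gave a fold of 3.68.

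**Figure D2:**
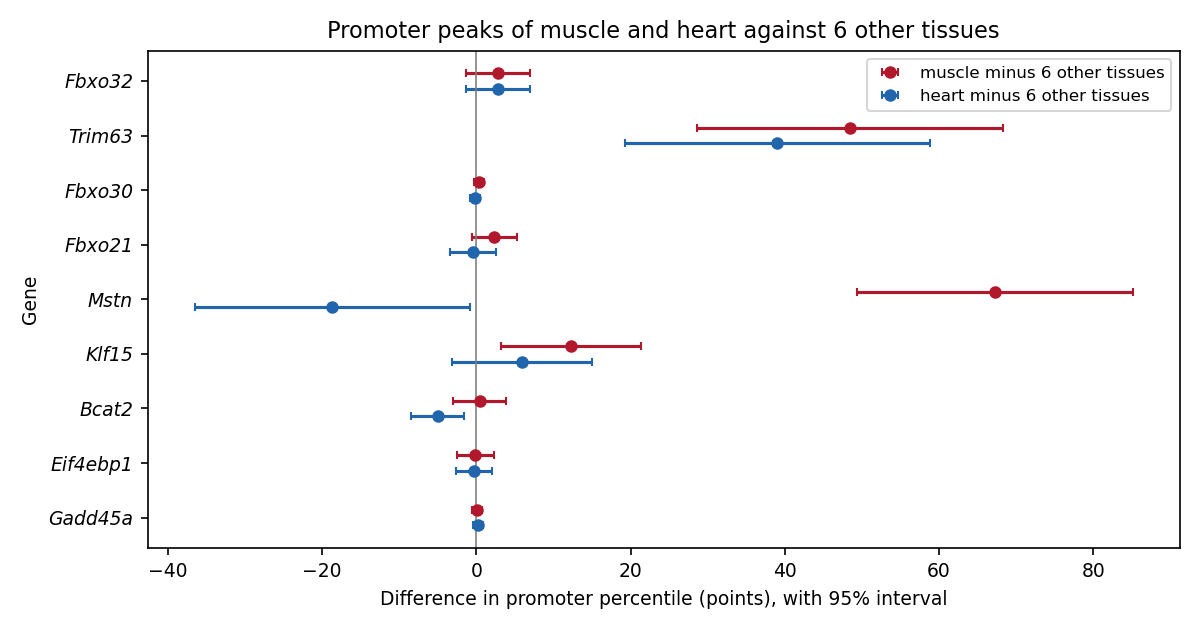
Difference in promoter percentile between muscle (red) or heart (blue) and the 6 other tissues for each gene, as points with 95% intervals from limma. Trim63 lies right of 0 for both tissues and Mstn for muscle alone, and the intervals of Fbxo30, Gadd45a, Eif4ebp1 and Fbxo32 include 0.

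Genes with promoter profiles like these were sought over all protein-coding genes. Across the 16 libraries, which share mice and are few, the profile of Trim63 was most like those of Mab21l1 (Pearson r = 0.88), Ckmt2 (0.87), the gene of the mitochondrial creatine kinase of striated muscle, and Fbxo40 (0.86), a muscle F-box gene. That of Mstn was most like Gm45021 (0.93), Drp2 (0.91) and Tex35 (0.86). That of Klf15 was most like Nr2f2 (0.99), Macrod2 (0.99) and Aco1 (0.98).

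The wider windows, each gene body with 20 kb on both sides, held 339 accessible regions, of which 205 were found in at least 2 libraries at q under 0.01 and were tested. Muscle stood out: 65 of the 205 were higher in muscle than in the 6 other tissues (limma, adjusted p under 0.05), against 13.4% of all 379519 regions, and 29 were lower, against 18.7%. Trim63 (16 of 24), Mstn (9 of 15) and Fbxo32 (13 of 35) held most of them. Klf15 had 8 of 29, Gadd45a 5 of 17, Eif4ebp1 4 of 18, Bcat2 4 of 23, Fbxo30 2 of 8 and Fbxo21 4 of 36. Of the 65, 19 were found at that threshold only in the 2 muscle libraries. Such a region entered the test through the group where it is high. Among regions found in at least 4 libraries, 39 of 104 were higher in muscle, against 17.0% of all such regions.

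In heart, 20 of the 205 were higher, against 8.52% of all regions, and 40 were lower, against 18.1%. Trim63 had 6, Fbxo32 4 and Eif4ebp1 3. Of the 20, 16 were also higher in muscle. Between muscle and heart, 44 regions were higher in muscle, against 8.79% of all, and 3 in heart, against 4.45%. Mstn accounted for 10 of the 44 and Trim63 for 8. Neighbouring regions of a gene are not independent of each other.

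**Figure D3:**
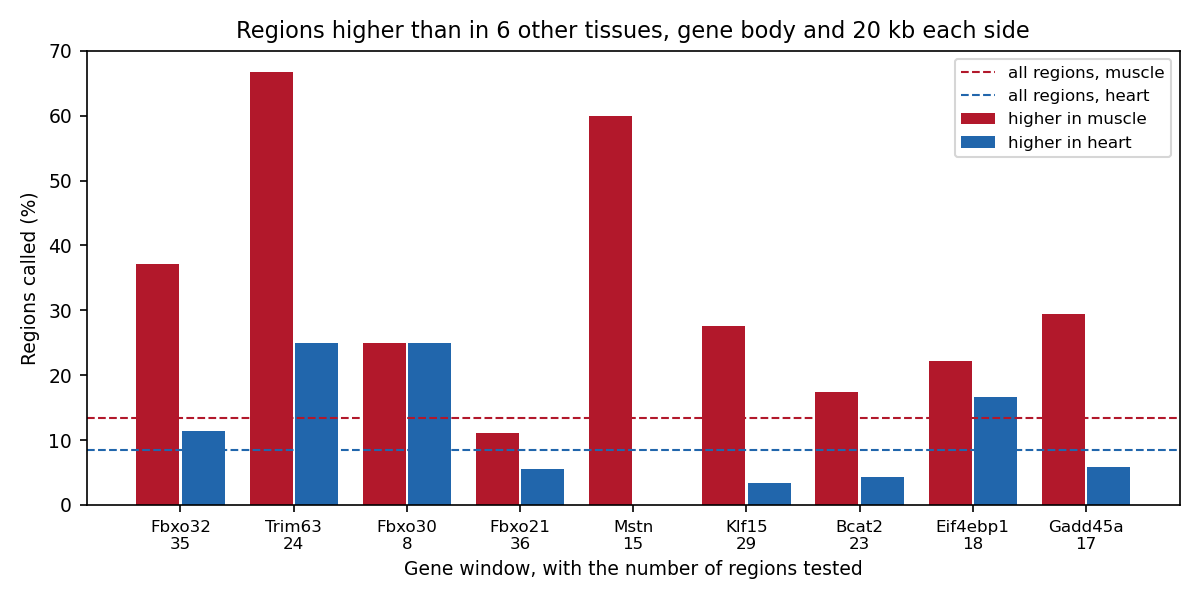
Share of tested regions (%) in each gene window that were higher in muscle (red bars) or heart (blue bars) than in the 6 other tissues, with the number tested under each name and the share among all regions as dashed lines (13.4% and 8.52%). The red bars of Trim63, Mstn and Fbxo32 are the tallest, and Mstn has no heart bar.

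Some regions were open in muscle alone. Of 95 regions of the windows found in both muscle libraries, 16 overlapped no peak of any other library, a share not far above the 12.5% of all such regions. A further 2 were shared with both heart libraries alone, against 1.34%, 1 in Fbxo32 and 1 in Trim63. The Mstn start region (chr1:53061443-53061703) stood at 87.9 fed and 84.0 fasting in muscle and at 0 in the other 14 libraries. The Trim63 upstream element shown above stood at 71.1 and 85.1, the Mstn intron element at 82.6 and 79.1, and the Klf15 intron element (chr6:90472049-90472432) at 85.2 and 89.8, again with 0 elsewhere. These regions entered the test through muscle alone and were picked by smallest adjusted p. Their values therefore only describe them, and neither the values nor the p-values are independent support.

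Fbxo32 showed its muscle pattern away from the start. The strongest region outside its promoter (chr15:58203790-58204607), in an intron 10733 bp from the nearest start, stood at 96.8 fed and 82.3 fasting in muscle and at 86.9 and 93.3 in heart, above the highest other library, white adipose fasting at 73.1. It was 64.9 points higher in muscle (SE 6.38, limma adjusted p = 9.2e-05) and 65.5 points higher in heart (SE 6.38, limma adjusted p = 0.00015). The region was picked for its high percentile in muscle and in heart, so these p-values are no independent support. A further intron region (chr15:58194118-58195119) stood at 72.4 and 60.1 in muscle, 71.4 and 82.6 in heart, and 0 in the other 12 libraries. It is the Fbxo32 region shared by muscle and heart alone.

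For Trim63, the strongest region away from its starts (chr4:134299183-134301018), intergenic and centred at -15019 bp from the nearest start, stood at 98.2 fed and 97.8 fasting in muscle, 89.6 and 82.8 in heart, and 92.4 and 97.0 in brown adipose. Its nearest protein-coding start is that of Pdik1l. Within the gene, an intron region (chr4:134320974-134321525) was found in muscle, at 64.4 and 70.1, and heart, at 41.1 and 71.8, and had no peak in the other 12 libraries. Muscle and heart overlapped in it.

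Eif4ebp1, whose promoter was open everywhere, also held restricted introns. The first element shown above (chr8:27264271-27264682) stood at 85.2 fed and 91.3 fasting in muscle, 77.5 and 73.3 in heart, 61.3 and 65.4 in spleen, and 0 in the other 10 libraries. It was 77.7 points higher in muscle (SE 1.99, limma adjusted p = 1.5e-08) and 64.8 points higher in heart (SE 1.99, limma adjusted p = 1.8e-07). The other element (chr8:27269107-27269475) stood at 89.4 and 91.1 in muscle, 57.1 and 57.3 in heart, 17.6 in fed brown adipose and 0 in the rest. It was higher in muscle than in heart by 33.0 points (SE 4.48, limma adjusted p = 0.0011). Both elements were picked by smallest adjusted p in muscle or heart, so these p-values are no independent support.

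A region centred 18376 bp beyond the Mstn start (chr1:53079807-53080259) had a peak in muscle and fat, and none in heart or the other tissues. It stood at 88.6 and 89.1 in muscle, 85.3 to 90.0 in the 4 adipose libraries, and 0 in heart and the other 8 libraries. Between muscle and heart, Fbxo21 held a region of the opposite kind in an intron (chr5:117997286-117998199), at 84.7 and 88.6 in heart and 0 in muscle. There kidney stood at 86.3 and 89.7, liver at 72.6 and 92.9, and fed white adipose at 53.8.

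The leading regions of the remaining windows were found in more tissues. The strongest outside the Klf15 starts (chr6:90450252-90451799), centred at -11550 bp from the nearest start, stood at 97.9 and 98.8 in muscle and at 91.2 or more in every library except spleen, at 0 and 1.84. The strongest of Bcat2 (chr7:45588818-45589622), in an untranslated part of the gene, stood at 95.9 to 99.7 in all 16. That of Fbxo30 (chr10:11274365-11274980) was present in all 16, lowest in spleen at 45.9 and 38.6 and in lung at 54.5 and 58.3. For Gadd45a the strongest in muscle (chr6:67056906-67057908), centred at -19950 bp, stood at 77.7 and 85.7 in muscle and 33.6 and 20.3 in heart, with fasting lung at 77.9.

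Fasting moved none of the 9 promoters past the test. Across all tissues, limma called 0 of 17755 genes (0.00%) at an adjusted p under 0.05, with 837 at an unadjusted p under 0.05. The differences of the 9 lay between -7.02 points for Mstn (95% interval -18.7 to 4.68) and 3.74 for Trim63 (-9.23 to 16.7), and that of Fbxo32 was -0.89 points (-3.61 to 1.82). The fasting difference of muscle was set against that of the other 7 tissues, and of heart likewise. None of the 9 passed, where 0.0451% of all genes passed for muscle, and 0.321% passed as higher and 0.681% as lower for heart. In heart, Bcat2 stood at 94.8 fed and 89.1 fasting and Fbxo21 at 98.3 and 92.8. The differences from the other tissues were -6.57 points (SE 1.83, limma adjusted p = 0.21) and -5.51 points (SE 1.69, limma adjusted p = 0.26), which did not pass. Of the 379519 regions 0.00% were called by limma for fasting, with 8896 at an unadjusted p under 0.05, and so were 0 of the 205.

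Within a tissue there is no replicate, and a difference was only described. In muscle, none of the 9 promoters moved by 10 points or more, whereas 4.50% of genes were higher and 7.19% lower in fasting muscle by that much. In heart none did either, against 8.92% and 10.7%. The percentile has a ceiling: in fed muscle Fbxo32, Fbxo30, Fbxo21, Klf15, Bcat2, Eif4ebp1 and Gadd45a stood at 96.6 to 99.8, so a rise of that size was not possible for them, and the count says little of whether they rose. Over the 8 tissues 5 pairs of gene and tissue moved that far, where 16.6% of all pairs did: Trim63 in brown adipose (9.66 to 46.8), liver (49.0 to 64.3) and kidney (72.3 to 55.6), Klf15 in spleen (40.8 to 60.5), and Mstn in kidney (43.4 to no peak).

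Along the gene bodies of Fbxo32 and Trim63, fasting muscle held more peak summits than fed muscle. The Fbxo32 gene body held 35 peak summits in fed and 85 in fasting muscle, and that of Trim63 held 16 and 40. The lists of the libraries are of nearly the same length, and the median gene had a ratio of 1. After adding 1 to each count the ratios were 2.39 for Fbxo32 and 2.41 for Trim63, which ranked 26 and 22 among 6111 protein-coding genes with at least 10 summits in either muscle library. A ratio of 2 or more was reached by 1.18% of those genes. Within 3 kb of the starts the counts were 6 and 8 for Fbxo32, and 10 and 27 for Trim63, whose internal starts place much of its short body in that window. This count was added after the values were seen, and it has no test.

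The 3 other members that could be counted stayed below a ratio of 2. Klf15 went from 17 to 25 summits, Eif4ebp1 from 10 to 13 and Fbxo21 from 15 to 16, while Mstn (7 and 7), Bcat2 (8 and 8), Gadd45a (4 and 7) and Fbxo30 (3 and 4) had too few to be counted. In heart, Fbxo32 went from 22 to 28 and Trim63 from 11 to 10, and no member reached a ratio of 2, against 1.64% of genes. In the 6 other tissues no member that could be counted reached it either, and the highest ratio was 1.88 for Bcat2 in liver. Fbxo32 had 16 and 16 summits in brown adipose, 7 and 12 in white adipose (ratio 1.625) and 7 and 11 in spleen (ratio 1.5). In lung it had 9 and 5, too few to be counted.

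**Figure D4:**
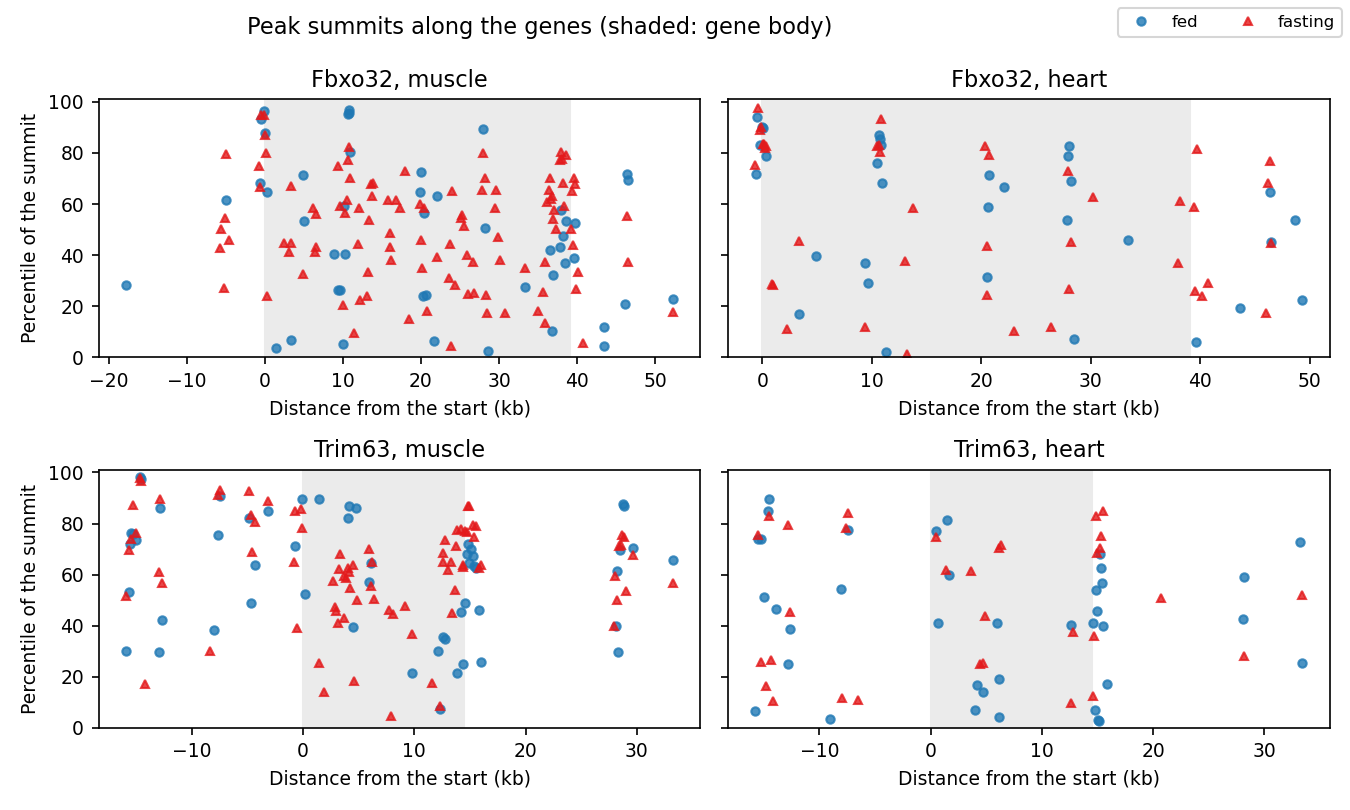
Peak summits of fed (blue circles) and fasting (red triangles) libraries along Fbxo32 (top) and Trim63 (bottom) in muscle (left) and heart (right), by distance from the start (kb, in the direction of the gene) and percentile. In muscle the red triangles fill the shaded gene bodies, 85 against 35 summits for Fbxo32 and 40 against 16 for Trim63, whereas in heart both states are sparse.

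The added summits ran through the whole gene. Cut into pieces of 1 kb, Fbxo32 had a summit in 17 of 40 pieces in fed and 31 of 40 in fasting muscle, and Trim63 in 9 of 15 and 13 of 15. Among regions, of 56 regions found in muscle in the Fbxo32 window, 36 were found in fasting muscle with no overlapping fed peak, and 3 were found in fed muscle alone. Over all 9 windows, 65 of 172 muscle regions were of the fasting-only kind, against 22.8% of all muscle regions, and 11 were fed-only, against 18.3%. In heart 14 of 77 were fasting-only, against 27.8%, and 10 were fed-only, against 23.0%. Fbxo32 supplied 36 of the 65, and without it 29 of 116 (25.0%) of the muscle regions were fasting-only, close to the 22.8% of all. Trim63 had 5 of 27, below that, and Fbxo30 had 5 of 9, Mstn 5 of 16, Eif4ebp1 4 of 11, Gadd45a 4 of 13, Klf15 3 of 14, Bcat2 2 of 15 and Fbxo21 1 of 11.

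The summits also differed in height. The median Fbxo32 gene-body summit stood at 3.49 in fed and 5.28 in fasting muscle on the log2 scale of tags over library background, a difference of 1.79, and that of Trim63 at 3.87 and 5.50, a difference of 1.63. Among 8751 genes with at least 5 summits in each state they ranked 34 and 49, the median difference was 0.02, and 2.67% were higher by 1 or more. Eif4ebp1 differed by 0.79, Fbxo21 by 0.23, Klf15 by 0.14, Bcat2 by 0.11 and Mstn by -0.55. In heart the difference was 0.07 for Fbxo32 and 0.42 for Trim63.

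The local tag level that the peak caller expected at these summits, from their surroundings, differed by more. For Fbxo32 it went from 2.01 to 4.62 on the log2 scale over library background and for Trim63 from 2.92 to 4.85. The promoter percentile, which sets a summit against its surroundings, was not higher: at the Fbxo32 start the summit held 377 tags in fed and 789 in fasting muscle, 5.88 and 6.22 over library background, while the fold went from 8.06 to 4.83. The library background itself was 6.39 tags in fed and 10.6 in fasting muscle, so the fasting library was the deeper one. Between the same libraries, the mean promoter percentile of the 4 endothelial marker genes went from 55.9 to 73.7, that of the 4 adipocyte genes from 34.8 to 17.4, with Adipoq, Cidec and Lep at 0 in fasting muscle, and that of the 4 leukocyte genes from 40.2 to 29.0, with Ptprc and Cd3e at 0. The part of depth and of these cell types in the gene-body result was not tested.

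**Figure D5:**
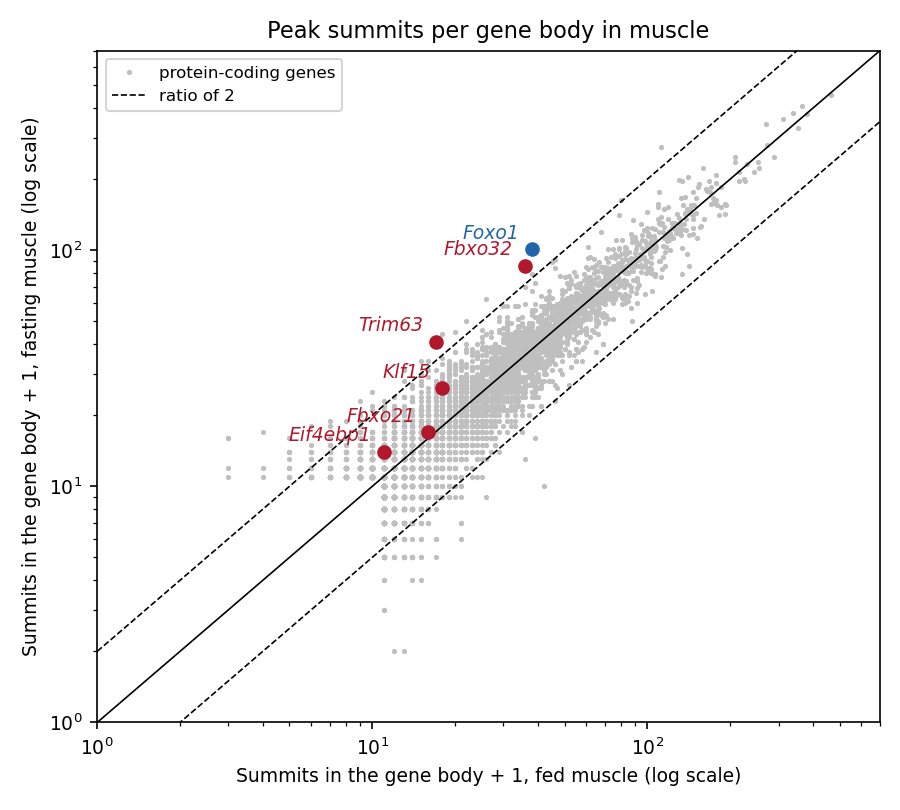
Peak summits per gene body, plus 1, in fasting against fed muscle on log axes for protein-coding genes with at least 10 summits in either library (grey), with the members of the set in red and Foxo1 in blue. The solid line marks equal counts and the dashed lines a ratio of 2. Fbxo32, Trim63 and Foxo1 lie above the upper dashed line, and Klf15, Fbxo21 and Eif4ebp1 lie below it.

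The same count was made for 71 other genes of the pathways around muscle wasting. In muscle 41 had enough summits, and 4 reached a ratio of 2 or more while 0 had a ratio as low as 0.5, against 1.18% and 1.59% of all genes counted. With rows at q under 0.01 the count was 4 of 41, where 2.88% of all genes reached that ratio. With rows at q under 1e-06 it was 8 of 32, against 9.45%, and with the upper 50% of rows 2 of 25, against 1.32%. The genes named next are those of all rows. The 4 were named after their values were seen: Foxo1 (37 fed, 100 fasting), the FOXO factor that drives atrophy genes, Tgfbr1 (12 and 30), a receptor of the myostatin pathway, Usp14 (4 and 13), a deubiquitinase of the proteasome, and Psmd11 (12 and 27), a proteasome subunit. In heart 0 of 35 reached it, against 1.64% of all genes. The summits of Foxo1 were also higher in fasting muscle, by 0.71 on the log2 scale, while those of Tgfbr1 differed by -0.41.

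At their promoters, 11 of the 71 genes were higher in muscle than in the 6 other tissues, where 9.70% of all genes were, and 3 were lower, where 12.5% of all genes were. The ubiquitin list had 4 of 14 higher, among them Fbxo40, a muscle F-box gene (28.7 points, SE 3.66, limma adjusted p = 0.0017), and Ubb, a polyubiquitin gene (8.53 points). The denervation list had 2 of 5 higher: Chrna1, a subunit of the acetylcholine receptor (80.8 points, SE 0.63, limma adjusted p = 1.3e-10), and Myog, a myogenic factor (51.8 points). Chrna1 had a promoter peak only in muscle (85.2 fed, 82.0 fasting) and spleen (17.2 and 15.95). It met the filter of 4 libraries through muscle, where it is high, so its small SE and p-value add little. Pdk4, which spares glucose in fasting, was 8.10 points higher and Fkbp5, a glucocorticoid target, 1.23. Psmb3 (2.64), Ctsl (2.05) and Dbt (5.82) were higher by a few points. Smad3 (-2.86), Inhba (-9.80) and Bckdk (-2.28), the kinase that restrains branched-chain amino acid breakdown, were lower. The median over the 71 was 0.73 points, against 0.16 over all genes tested.

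In heart 5 of the 71 were higher, a share close to the 7.41% of all genes. Among them were Fbxo40 (25.0 points, SE 3.66, limma adjusted p = 0.0041) and Myog (56.5 points). A further 3 were lower, against 8.05% of all genes, namely Dbt (-10.3), Mtor (-4.29) and Chrna1 (-2.76). Chrna1, with no promoter peak in heart, also had none in liver, both adipose depots, lung or kidney. Its difference comes from the spleen peaks alone. Foxo1 and Foxo3 did not pass in muscle or heart: in muscle they differed from the 6 other tissues by 0.67 points (95% interval -1.64 to 2.99) and 1.05 points (0.0059 to 2.09, limma adjusted p = 0.14). No gene of the 71 passed for fasting against fed by limma.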

How the data were processed

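The authors trimmed the reads, aligned them to GRCm38 with Bowtie2, removed duplicates and mitochondrial reads, shifted reads for the transposase and called peaks with MACS2 on each pooled library, as the study's methods and the file names state. Tool versions are not given in the sources used here. The deposited lists hold, per summit, a fold enrichment (a ratio over local background), a −log10 p-value, a −log10 q-value and the summit offset. They are permissive lists limited in length, so a missing peak can be a weak one. No sample was left out, and coordinates lay within the GRCm38 chromosomes.

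From these files the rank of the −log10 p-value within each list was computed as a percentile, summit tags and background were solved from fold and p-value under the Poisson model, and limma 3.58.1 (R 4.3.3) was fitted to promoter percentiles of genes with a peak in at least 4 libraries (17755 of 21938 protein-coding genes) and to regions found at q under 0.01 in at least 2 libraries, with Benjamini-Hochberg adjustment at 0.05. The 6 other tissues are liver, both adipose depots, spleen, lung and kidney. Fasting differences of muscle and heart against the other tissues used an interaction term. Motifs, gene-body counts and figures used Python 3.11.15. limma was tested on simulated shifts.

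Named genes were the 9 members, pathway genes past a test (at most 3 a list and comparison) with Foxo1, Foxo3 and Fbxo40, and the 3 genes most like each variable member. Named regions were those of highest percentile in muscle and in heart away from starts and at most 2 a gene by smallest adjusted p. The regions shared by muscle and heart alone, the Mstn element of liver and the gene-body measures were chosen after their values were seen. The members and lists were chosen with earlier results of these data known. Alternatives were other windows, starts, thresholds, measures of strength, filters, limma settings and leaving out each tissue. Values carry no replicate error within a tissue and state, and depth is known only through the background.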

Additional observations from a re-analysis of the deposited data

Results flagged for a closer look

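Trim32, a ubiquitin ligase of striated muscle on the pathway list, was flagged because its fasting difference in heart differed from that in the other 7 tissues. Its promoter percentile was 95.8 in fed and 88.0 in fasting heart, and the difference from the other tissues was -7.73 points (SE 0.83, limma adjusted p = 0.012). This rests on 1 library per state in heart, where 178 of 17755 genes passed the same test, and the cause was not tested.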

How the results depend on the processing

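No paired analysis was possible because the labels number no replicates, beyond the tissue term, which sets the fed and the fasting library of each tissue against each other in the fasting fit. Among values of the counts behind the comparisons in other settings, 169 stayed within 1.5 times and 24 did not. Of the 9 members, 2 were called higher in muscle, and 1 when ranked by fold. With peaks at q under 1e-06, ranked among promoters and with limma trend and robust settings 3 were called. On the log2 scale of summit tags over background 4 were, where 1304 of 17755 genes were higher. In heart 1 was called in either direction, and it was higher. The count was 0 when ranked by fold and without white adipose. It was 2, of which 1 was higher and 1 lower, without liver, without kidney, ranked among promoters and with limma trend and robust settings. With peaks at q under 1e-06 it was 3, of which 1 was lower, and on the tag scale 8, of which 7 were lower. Between muscle and heart the count was 1, but 2 ranked among promoters and with trend and robust settings and 9 on the tag scale, all higher in muscle. On the tag scale 13260 of 17755 genes were lower in heart than in the 6 other tissues, and 10994 were higher in muscle than in heart. The counts on it for these 2 comparisons therefore say little of the members. On that scale all genes shift, by a median of -1.12 for heart against the 6 other tissues, 1.30 for muscle against heart and 0.20 for muscle. Fbxo32, Klf15 and Gadd45a reversed to -0.75, -1.02 and -1.13 in heart, and Fbxo32 and Gadd45a to 1.91 and 1.41 for muscle against heart. Klf15 became called in muscle with trend and robust settings (limma adjusted p = 0.026), and Mstn was called in muscle in every setting run.

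The 65 regions higher in muscle were 39 among regions in at least 4 libraries. The 29 lower were 15 within 5 kb, 16 for regions nearest to a member's start and 15 in at least 4 libraries. The 40 lower in heart were 20 within 5 kb and 24 nearest to a member's start. Pairs that moved by 10 points on fasting numbered 0 in muscle (3 by fold), 0 in heart (2 by fold, 4 among promoters) and 5 over all tissues (12 by fold, 16 among promoters). The 2 members with a gene-body ratio of 2 in muscle stayed 2 with q under 0.01, q under 1e-06 and the upper 50% of rows, with ratios of 2.61 to 3.63 for Fbxo32 and 2.56 to 4.38 for Trim63. At q under 1e-06 the median gene had a ratio of 1.33 and 9.45% reached 2. At q under 0.01 the share of genes that reached 2 was 2.88%, and with the upper 50% of rows 1.32%. The cause of the other changes was not tested. Leaving out each tissue gave 2 to 2 members called in muscle, 0 to 2 in heart in either direction, 1 to 1 between them and 0 to 0 for fasting. It gave 62 to 68 regions higher and 26 to 35 lower in muscle, and 18 to 23 higher and 33 to 44 lower in heart.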
